A study of Rattus norvegicus with 64 samples.

Results

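The interferon-stimulated genes described here are 39 rat genes chosen by name, because interferons are known to switch them on. Of the 39, 37 had a probe on the array whose RefSeq transcript named them, and Xaf1 and Herc6 did not, out of 15709 genes named in this way. They were divided by role into 3 RNA and DNA sensors, 6 transcription factors and their partners, 12 antiviral effectors, 6 genes of the Isg15, ubiquitin and ADP-ribose systems, 5 interferon-inducible GTPases and 5 genes of the immunoproteasome and peptide transporter. Where a gene had 2 probes (6 of the 37), the brighter one over all arrays was used.

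The arrays measured RNA from the wall of rat urinary bladders rebuilt after hemicystectomy, in male syngeneic Wistar rats. One arm received bladder acellular matrix (BAM), a bladder wall stripped of its cells, and the other received BAM seeded with 10000000 adipose tissue-derived stromal cells (ASCs) of the third passage from retroperitoneal fat. Bladders were taken at 7, 30, 90 and 180 days, which gives 8 groups of 8 one-color arrays labelled as biological replicates, 64 in all. The age of the recipient rats was not given in the sources used here, and no unoperated bladder was among the samples analysed here. All rats therefore shared the surgery and the matrix. Besides carrying cells, the seeded grafts were cultured for 7 days before surgery, in medium with fetal bovine serum and basic fibroblast growth factor. The paper describes no such culture for BAM only, so cells and culture cannot be told apart in the differences between grafts.

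Cells make interferons when sensors find foreign or misplaced nucleic acid, or, for the type II interferon, when T and NK cells are activated. Type I interferons act through a complex that holds Stat2 and Irf9 and binds the interferon-stimulated response element (ISRE), and interferon gamma acts on the gamma-activated site (GAS). The genes they switch on block viral replication, mark and cut proteins for presentation to T cells, and feed back on the pathway, and in a bladder wall both resident cells and infiltrating leukocytes can express them.

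RefSeq promoters of the build GRCr8, from 250 bases before to 50 after the gene's start, were at hand for 31 of the 39 genes. The ISRE core (GAAA, any 2 bases, GAAA, on either strand) was found in 19 of these 31, or 61.3%, and in 3.92% of all 33469 promoters. The GAS core (TTC, any 3 bases, GAA, which reads the same on both strands) was found in 9 of the 31, or 29.0%, and in 8.87% of all promoters. Both cores were present in 6 members and neither in 9, and the paired ISRE matches of Oas1a and of Bst2 overlap each other. In Parp14 and Igtp a GAS core stands just before the ISRE core, in the stretch printed. Matches are letters in a window and are no evidence of binding here. For some of the members with values below, from each role but the sensors, the stretch around 1 core is shown on the gene's own strand, with the core in capitals.
Tap2 (ISRE, chr20:4652313-4652352, minus strand): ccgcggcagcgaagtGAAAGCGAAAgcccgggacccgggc
Psmb10 (ISRE, chr19:50743341-50743380, minus strand): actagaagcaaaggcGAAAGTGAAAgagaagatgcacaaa
Ifit3 (ISRE, chr1:241527267-241527306, plus strand): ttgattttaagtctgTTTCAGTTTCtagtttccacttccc
Irf7 (ISRE, chr1:205800068-205800107, minus strand): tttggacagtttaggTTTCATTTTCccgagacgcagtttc
Rsad2 (ISRE, chr6:48788243-48788282, minus strand): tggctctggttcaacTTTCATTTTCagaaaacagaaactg
Parp14 (ISRE, chr11:78408043-78408082, plus strand): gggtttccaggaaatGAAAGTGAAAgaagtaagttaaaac
Igtp (ISRE, chr10:42874929-42874968, plus strand): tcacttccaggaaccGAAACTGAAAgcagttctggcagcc
Irf1 (GAS, chr10:38417778-38417816, plus strand): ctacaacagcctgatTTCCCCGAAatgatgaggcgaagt

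**Figure D1:**
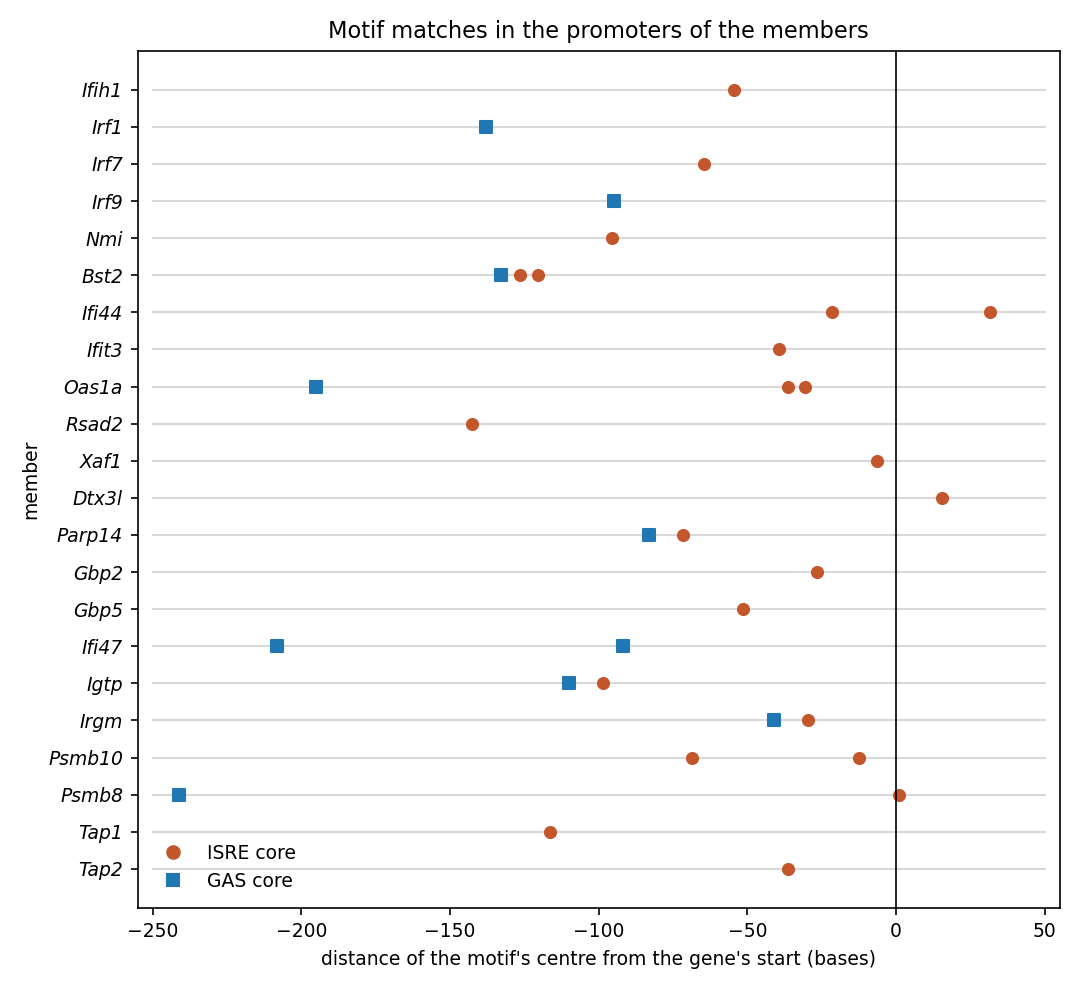
Positions of the ISRE cores (circles) and GAS cores (squares) in the promoters of the 22 members with a match; the horizontal axis is the distance of the motif's centre from the gene's start in bases, and each grey line is the window searched. Most circles lie within the 150 bases before the start; 31 of the 39 genes had a promoter.

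Levels are given as the log2 signal of a probe relative to the 75th percentile of its own array, and differences between groups as log2 differences, so that 1 is a 2-fold change. Differences were tested with limma over all 64 arrays and 30367 probes, and a gene was called a differentially expressed gene (DEG) where its p, adjusted by Benjamini-Hochberg over all probes, was below 0.01 and its change over 1.5-fold. Spots well above background ranged from 35.5% to 95.6% per array, and 6 arrays lay more than 8 percentage points from the median of their group. The local background was 321 to 366 on the BAM 90 d arrays against 99 to 120 on the BAM seeded with ASCs arrays of that day. No slide held arrays of more than 1 group, so slide and group cannot be told apart in any difference below. Of the 37 members, 18 were well above background on all 64 arrays.

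Few single members differed between the grafts, while the list as a whole lay lower in bladders with BAM seeded with ASCs at 30 days and higher at 180 days, by less than or about the spread between rats. At 7 days 1 of 37 members was a DEG, Tap2, which was lower (of all probes 7.73% were DEGs on that day, 5.62% lower and 2.11% higher). At 30 days no member was a DEG (1.67% of all probes, 0.474% lower). In the same limma fit 15 members had an unadjusted p below 0.05 and 4 an adjusted p below 0.05. The shares of all probes at those looser thresholds were not computed, so nothing particular to the list is read from these counts. At 90 days 2 were DEGs (12.5% of all probes, 8.6% lower and 3.88% higher), Oas2 as lower and Igtp as higher. At 180 days none was a DEG (2.44% of all probes, 2.4% higher and 0.0428% lower), and 1, Irf9, had an unadjusted p below 0.05. No share of members called stood above that of all probes.

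The sign of the differences was more uniform than their size. With ASCs, 9 of 37 members lay above BAM only on the first day sampled, 2 and 5 on days 30 and 90, and 36 on day 180. The median difference of the members was −0.22, −0.57, −0.38 and 0.26 at 7, 30, 90 and 180 days, and that of all probes was −0.16, 0.11, −0.27 and 0.06. Against the median of all probes, 18, 2, 13 and 36 members lay above it on those days. The members were measured in the same rats, so these counts are not 37 independent observations.

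**Figure D2:**
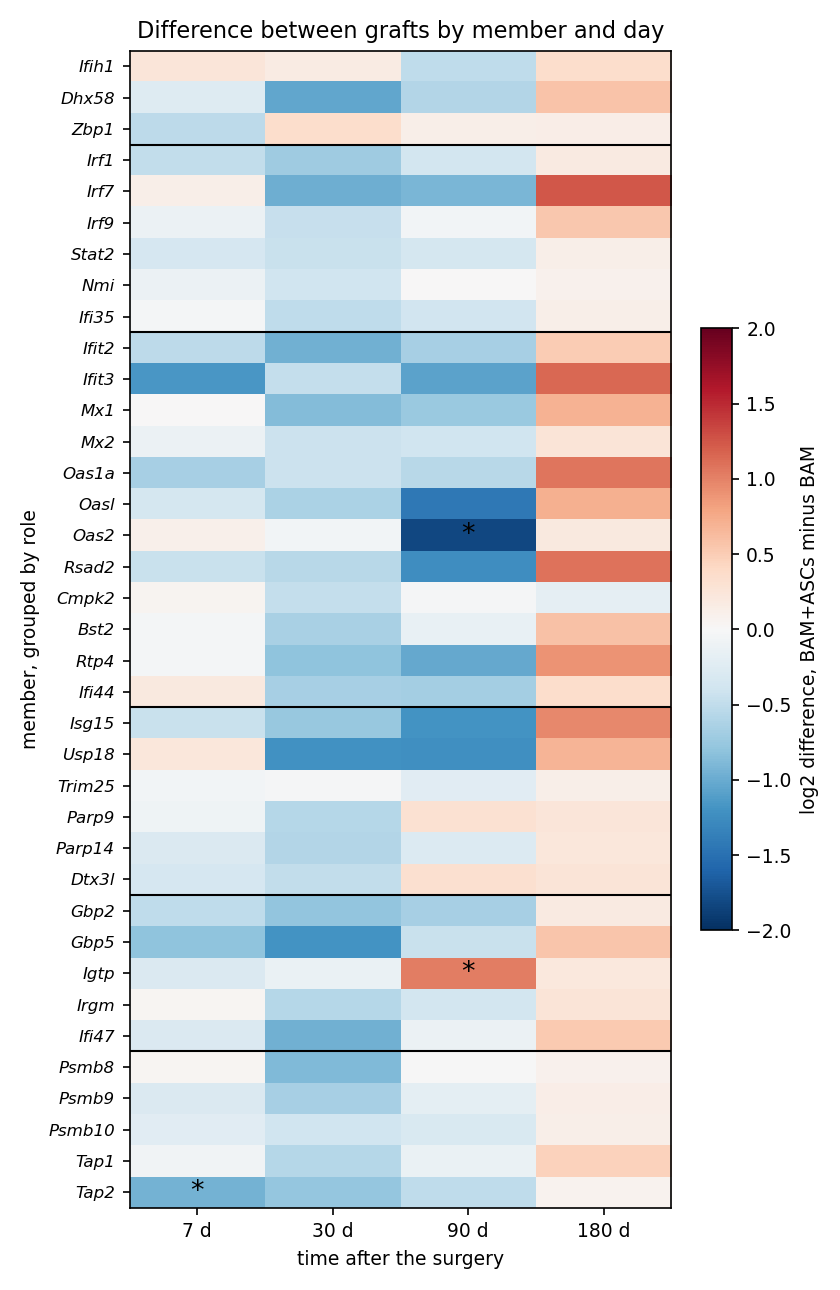
Log2 level with ASCs minus that with BAM only for each of the 37 members (rows, grouped by role with lines between roles) at each day (columns); red is higher and blue lower with ASCs, and an asterisk marks a DEG. At 30 days 35 rows are blue and at 180 days 36 are red, with 3 asterisks in all.

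The mean of the 37 members on each array showed how far the rats of a group differed. At 7 days it ran from −0.36 through a median of 0.36 to 1.16 with ASCs, and from −0.52 through 0.57 to 1.51 with BAM only. At 30 days it ran from −0.83 through −0.43 to 0.79 with ASCs, and from −0.60 through −0.12 to 2.02 with BAM only. The groups overlapped on both days, and at 30 days 3 BAM only arrays (0.79, 2.02 and 1.52) lay at or above the highest array with ASCs. At 90 days the values were −1.45, −0.79 and 0.13 with ASCs, and −1.09, −0.66 and 1.56 with BAM only. At 180 days they were −1.08, −0.57 and 0.49 with ASCs, and −1.09, −0.86 and −0.80 with BAM only. The difference in the mean was −0.24, −0.58, −0.46 and 0.42 at 7, 30, 90 and 180 days, against an SD between arrays, pooled over both grafts, of 0.51, 0.82, 0.77 and 0.36 (n = 8 per group, no test). At 180 days alone among the 4 days was it larger than that SD. Without BAM 90 d replicate 4 the 90 day value was −0.19, without BAM 30 d replicate 4 the 30 day value was −0.34, and without BAM 7 d replicate 7 the 7 day value was −0.10, and at 7 days leaving out BAM replicate 2 gave −0.39.

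**Figure D3:**
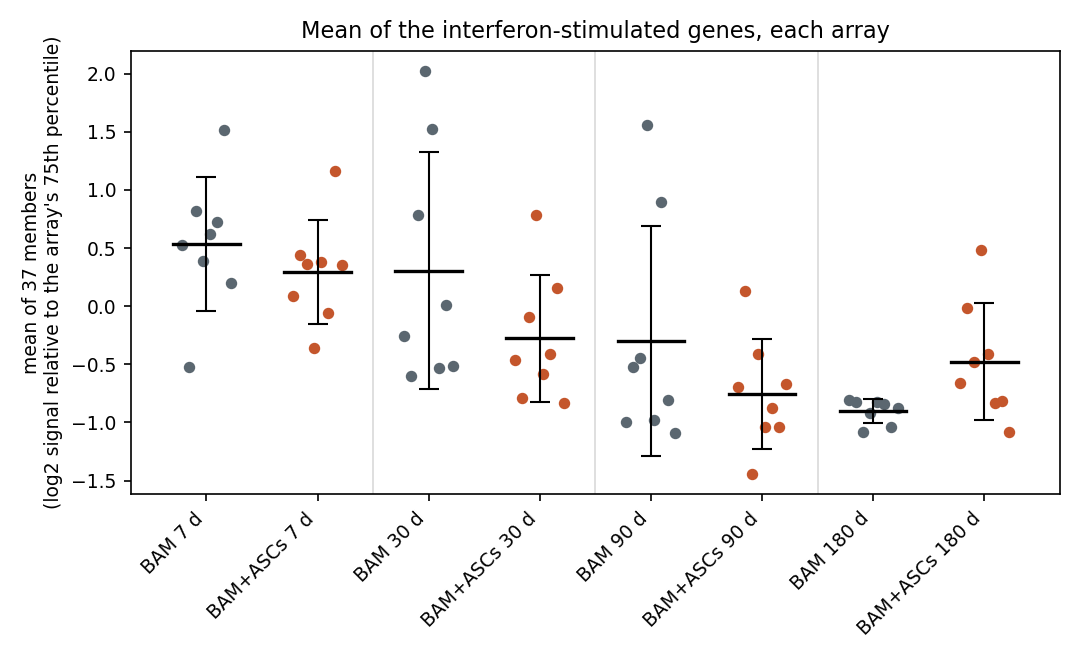
Mean log2 level of the 37 members on each array (points, 8 per group; gray, BAM only; orange, BAM seeded with ASCs), with the group mean (thick line) and SD (bars). The BAM 30 d and BAM 90 d groups have single arrays up to 2.02 and 1.56, and the 8 BAM 180 d arrays lie between −1.09 and −0.80.

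Among the RNA and DNA sensors, Dhx58 encodes a helicase that tunes the response to viral RNA, Ifih1 a sensor of long double-stranded RNA, and Zbp1 a sensor of nucleic acid in the Z form. Zbp1 with ASCs ran from −2.21 through −2.01 to −1.76 at 7 days and from −1.75 through −1.42 to −0.84 at 30 days, so that all 8 arrays at 30 days lay above all 8 at 7 days. It was called higher by 0.63 ± 0.16 (SE, limma adjusted p = 0.00202), the sole DEG of the list in that step. Its other probe ran the opposite way in that step (−0.85, adjusted p = 0.287), as it did between the grafts at 30 days (−0.84 against 0.35 for the probe used). With normexp background correction or the mean of both probes the step had no called member. Dhx58 with BAM only ran from −2.73 through −2.23 to 0.28 at 30 days and from −4.12 through −3.40 to −0.73 at 90 days, and was called lower (adjusted p = 0.00467), but no size is given because only 4 of 8 arrays were well above background at 90 days. None of the 3 sensors was a DEG between grafts on any day.

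The transcription factors and their partners comprise Irf7 and Irf9, which act downstream of type I interferon, Irf1, which responds to interferon gamma, Stat2, the Stat-binding protein Nmi, and Ifi35. All 6 lay lower with ASCs at 30 days (median −0.48) and higher at 180 days (median 0.15), with none called. Irf1 with BAM only ran from 2.34 through 2.75 to 4.98 at 7 days, 2.27 through 2.67 to 3.90 at 30 days, 1.80 through 2.07 to 2.64 at 90 days and 1.25 through 1.65 to 1.79 at 180 days. With ASCs it ran from 2.14 through 2.56 to 3.13, 1.82 through 2.15 to 2.88 and 1.40 through 1.89 to 2.13 on the first 3 of these days, and its median was 1.70 at 180 days. Its medians thus lay lower at both later days in either graft. Within BAM only it fell by 0.78 ± 0.23 from 30 to 90 days (adjusted p = 0.00292). Its second probe was also called lower, but it was well above background on only 3 of 8 arrays at 90 days, so no size is given. The difference between grafts was −0.71 ± 0.23 at 30 days (adjusted p = 0.0461), which missed the threshold, where its second probe gave −0.58 (adjusted p = 0.120).

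Irf7, the factor that amplifies type I interferon output, was chosen for its spread after its values were seen. At 30 days with BAM only it ran from −0.19 through 0.64 to 4.83, and 3 arrays (4.13, 4.83 and 4.14) stood more than 3 above the other 5. At 90 days with BAM only 2 arrays (4.68, saturated, and 4.08) stood apart in the same way from a median of 0.08. At 180 days with BAM only all 8 arrays lay between −0.37 and 0.01, and with ASCs they ran from −0.32 through 0.62 to 3.77, with 6 of 8 above every BAM only array. The 180 day difference of 1.25 ± 0.74 did not pass (adjusted p = 0.503).

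The antiviral effectors include the dynamin-like GTPases Mx1 and Mx2 and the 2-5A synthetase family (Oas1a, Oas2, Oasl). They also include Ifit2 and Ifit3, from a family with members that bind viral RNA, and Rsad2 (viperin), which makes a chain-terminating nucleotide. All 12 lay lower with ASCs at 30 days (median −0.59) and at 90 days (median −0.72), and 11 of 12 lay higher at 180 days (median 0.64), where Cmpk2 did not. Oas2 was the single DEG. At 90 days it ran from −6.27 through −5.61 to −4.65 with ASCs and from −4.99 through −3.64 to −2.45 with BAM only, and with ASCs no array was well above background, against 3 with BAM only. The measured means were −5.53 ± 0.49 and −3.71 ± 0.82 (SD, n = 8, adjusted p = 3.89e-04), and no fold is given because most arrays of both groups were near background. The local backgrounds of these arrays, given above, differed, and their part was not tested. With another background correction (normexp) the difference was −0.69 and Oas2 was no DEG.

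Ifit3 had wide groups. With BAM only it ran from −0.61 through 0.84 to 2.15 at 7 days and from −4.25 through −1.69 to 1.93 at 30 days, and fell by 2.41 ± 0.67 (adjusted p = 0.00593). That call was lost when any 1 of 8 arrays was left out (BAM 7 d replicates 1, 3, 6 and 7 and BAM 30 d replicates 1, 2, 6 and 8), and 2 members were called without BAM 30 d replicate 4. At 180 days it lay at −3.85, −2.73 and −1.48 with ASCs and at −4.46, −3.89 and −3.28 with BAM only, with 6 of the 8 arrays with ASCs above every BAM only array (difference 1.15 ± 0.67, adjusted p = 0.488). Mx2 kept narrower groups, with medians of 3.61, 3.93, 3.48 and 3.52 with ASCs and of 3.98, 4.03, 3.70 and 3.37 with BAM only at 7, 30, 90 and 180 days, and differences of −0.11, −0.42, −0.40 and 0.26, none of which passed. Rsad2, chosen after its values were seen, had the largest SD of all members at 30 days with BAM only, 2.53, with values from −3.05 to 4.26.

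**Figure D4:**
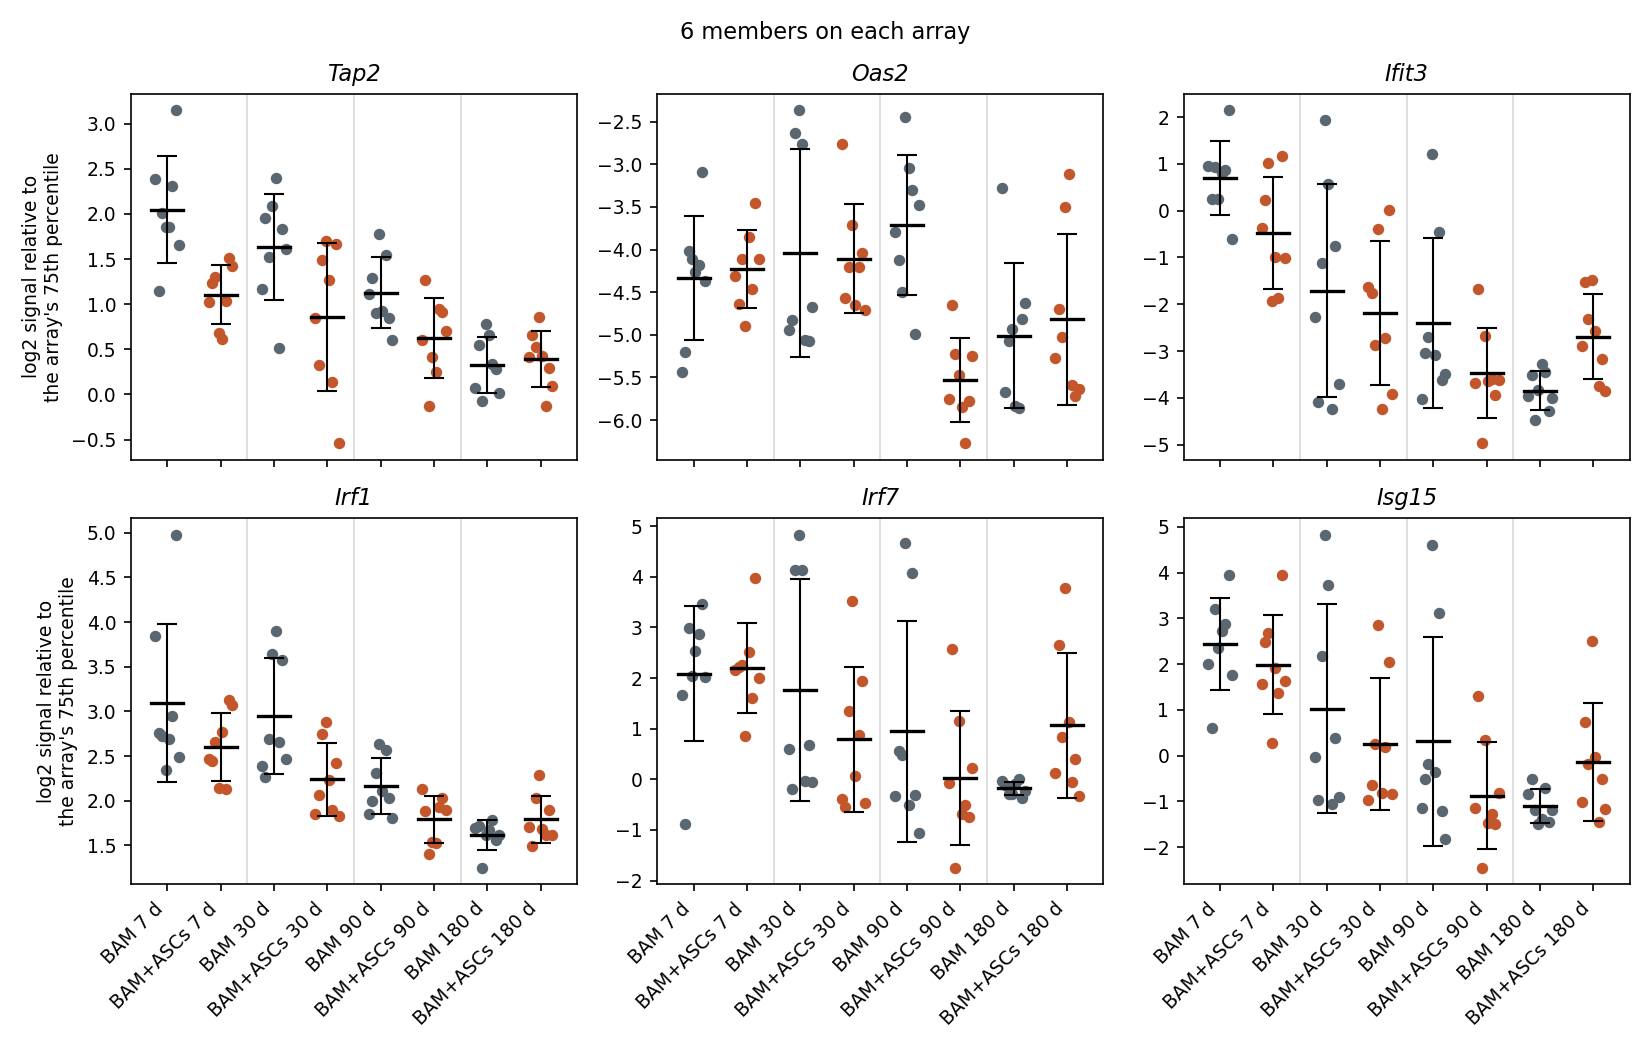
Log2 level of 6 members on each array (points, 8 per group; gray, BAM only; orange, BAM seeded with ASCs), with the group mean (thick line) and SD (bars); each panel has its own scale. The BAM only medians of Irf1 go from 2.75 at 7 days to 1.65 at 180 days, and Irf7 and Isg15 split into high and low arrays at 30 and 90 days with BAM only.

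The Isg15 group holds Isg15, a ubiquitin-like tag, Usp18, which removes it and dampens the interferon receptor, the ligase Trim25, and Parp9, Parp14 and Dtx3l of the ADP-ribose system. All 6 lay lower with ASCs at 30 days (median −0.58) and higher at 180 days (median 0.26), with no DEG. Parp14 ran from 1.48 through 1.78 to 2.55 with ASCs and from 1.80 through 2.22 to 3.74 with BAM only at 30 days (difference −0.58 ± 0.25, adjusted p = 0.136), and from 1.34 through 1.75 to 2.62 and from 1.48 through 1.56 to 1.73 at 180 days. Isg15, chosen after its values were seen, ran from −1.81 through −0.43 to 4.61 with BAM only at 90 days, and the same 2 arrays as for Irf7 (4.61 and 3.11) stood apart. Within BAM only, Parp9 fell by 0.79 ± 0.25 (adjusted p = 0.00483) from 30 to 90 days. Dtx3l was called lower in the same step (adjusted p = 6.60e-04), but it was well above background on only 3 of 8 arrays at 90 days, so no size is given.

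The interferon-inducible GTPases (Gbp2, Gbp5, Igtp, Irgm, Ifi47) act on membranes that enclose microbes. All 5 lay lower with ASCs at 30 days (median −0.79) and higher at 180 days (median 0.25). Igtp was called higher with ASCs at 90 days (5.71 ± 0.16 against 4.69 ± 0.56, SD, n = 8, adjusted p = 1.59e-07), but its probe was saturated on all 8 BAM only arrays and on 3 of 8 with ASCs at that day, and on 51 of 64 arrays in all, so no fold is given. Its second probe gave −0.30 (adjusted p = 0.451) at 90 days and −0.90 (adjusted p = 0.064) at 30 days. The saturated probes of Actb and Ppia, both housekeeping genes, differed by 1.04 and 1.02 on the same arrays. Gbp5, chosen after its values were seen, showed the largest 30 day difference in the group (−1.19 ± 0.40, adjusted p = 0.053), at −2.08, −1.72 and 0.09 with ASCs against −1.44, −0.46 and 1.80 with BAM only.

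The immunoproteasome subunits Psmb8, Psmb9 and Psmb10 replace the standard catalytic subunits and cut proteins into peptides, which the transporter of Tap1 and Tap2 carries to MHC class I. Tap2 was the DEG of the 7 day comparison. It ran from 0.61 through 1.13 to 1.51 with ASCs and from 1.14 through 1.93 to 3.15 with BAM only, and 7 of the 8 BAM only arrays lay above the highest array with ASCs. The difference was −0.94 ± 0.25, a 1.92-fold lower level (adjusted p = 0.00450). For its partner Tap1 the difference was −0.07 on that day (adjusted p = 0.900). Tap2 also lay lower at 30 days (−0.78 ± 0.25, adjusted p = 0.0402) and at 90 days (−0.51, adjusted p = 0.0986) without passing, and at 180 days the difference was 0.06 ± 0.25. The 7 day call was lost without any 1 of 5 arrays (BAM+ASCs 7 d replicates 4 and 5 and BAM 7 d replicates 1, 6 and 7), where the difference was −0.88, −0.87, −0.89, −0.91 and −0.79.

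Psmb8 showed the smallest p of the list between grafts at 30 days (−0.88 ± 0.26, adjusted p = 0.0262), with 0.38, 0.90 and 1.49 with ASCs against 0.74, 1.86 and 2.48 with BAM only. From 30 to 90 days within BAM only Psmb8 fell by 1.08 ± 0.26 (adjusted p = 2.59e-04) and Psmb9 by 0.96 ± 0.25 (adjusted p = 9.29e-04). Psmb10 ran from 2.79 through 3.16 to 3.56 with ASCs and from 3.10 through 3.58 to 4.11 with BAM only at 30 days, a difference of −0.39 ± 0.16 (adjusted p = 0.121).

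Over time, most members had their highest group mean early. It was in the BAM 7 d group for 17 members and in the BAM 30 d group for 12, and the lowest was in the BAM 180 d group for 28. Within BAM only, 1 member was called from 7 to 30 days (Ifit3, lower, 8.65% of all probes called, 4.21% lower and 4.44% higher), 7 from 30 to 90 days (44.7% of all probes), all lower (9.49% of all probes were called lower), and 1 from 90 to 180 days (the saturated Igtp, higher, 9.39% of all probes, 5.21% higher and 4.17% lower). The 7 were Psmb8, Psmb9, Parp9, Dtx3l, Igtp, Irf1 and Dhx58. The Igtp probe was saturated on every BAM 90 d array, and its other probe was not called (−0.68, limma adjusted p = 0.0565). Dtx3l and Dhx58 were well above background on only part of the BAM 90 d arrays, as given above. The number called was 15 without BAM 90 d replicate 4, 11 without BAM 90 d replicate 6 and 4 without BAM 30 d replicate 4 or 5. Within BAM seeded with ASCs, 1 was called from 7 to 30 days (Zbp1, higher, 8.06% of all probes, 6.67% higher, none without BAM+ASCs 30 d replicate 2). From 30 to 90 days 1 was called (Oas2, lower, limma adjusted p = 0.00255, 28.1% of all probes, 10.3% lower), but not with normexp or quantile normalization. No size is given for Oas2, because no array with ASCs was well above background at 90 days. None was called from 90 to 180 days (4.14% of all probes), where 1 member had an unadjusted p below 0.05. The steps from 30 to 90 days also crossed from the first to the second of 2 scan dates, and this cannot be told apart from time. The local background was 49 to 51 on the BAM 30 d arrays and 321 to 366 on the BAM 90 d arrays. Between these groups 4 of 9 housekeeping genes were called lower, among them Actb and Ppia with saturated probes, and none lay higher (median −0.41). With ASCs 1 of 9 was called lower in that step (median −0.04). The part of these shifts in the falls of the members was not tested.

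The effect of ASCs itself was compared between successive days by a contrast of contrasts in limma. No member's effect was called different between 7 and 30 days (0.985% of all probes, 0.0988% lower; 3 members had an unadjusted p below 0.05 and 1 an adjusted p below 0.05). Between 30 and 90 days it differed for Igtp alone (9.99% of all probes, 3.33% higher and 6.67% lower), and between 90 and 180 days for Oas2 (2.01 ± 0.56, adjusted p = 0.00720) and Igtp (9.79% of all probes, 5.95% higher and 3.84% lower), both resting on groups with a saturated or dim probe as given above. For Irf7, Isg15 and Ifit3 the change from the 90 day to the 180 day effect was 2.17 ± 1.04, 2.14 ± 1.04 and 2.23 ± 0.95 (adjusted p = 0.118, 0.120 and 0.0784). In that step 33 of 37 members had a change above 0, with a median of 0.63. The median change of all probes was itself 0.38, and 28 members lay above it. An unadjusted p below 0.05 was reached by 12 members and an adjusted p below 0.05 by 3. The shares of all probes at these looser thresholds were not computed, here or for the change between 7 and 30 days.

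The members of the list varied more between rats of a group than the median probe well above background, and often on the same array. Their median SD over the 8 arrays of a group was 0.66, 0.89, 0.92 and 0.29 with BAM only, in order of day, and 0.43, 0.58, 0.44 and 0.49 with ASCs. The median SD of all probes well above background on the 8 arrays was 0.20 to 0.31. Between 25 and 37 of the 37 members exceeded that median in each group. The members were not filtered by background, and only 18 of them were well above it on all 64 arrays, so the sets compared are unlike. Within a group, 1 array often held the highest value of most members, with 35 of 37 on BAM 90 d replicate 4, 34 on BAM+ASCs 7 d replicate 7 and 28 on BAM 30 d replicate 4, but not more than 9 on any BAM 180 d array. By role, the antiviral effectors had a median SD of 1.72 and the transcription factors 0.58 in BAM 30 d. The limma fit uses 1 common spread for all groups, which is wider than that of BAM 180 d and narrower than that of BAM 30 d and BAM 90 d for these genes.

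**Figure D5:**
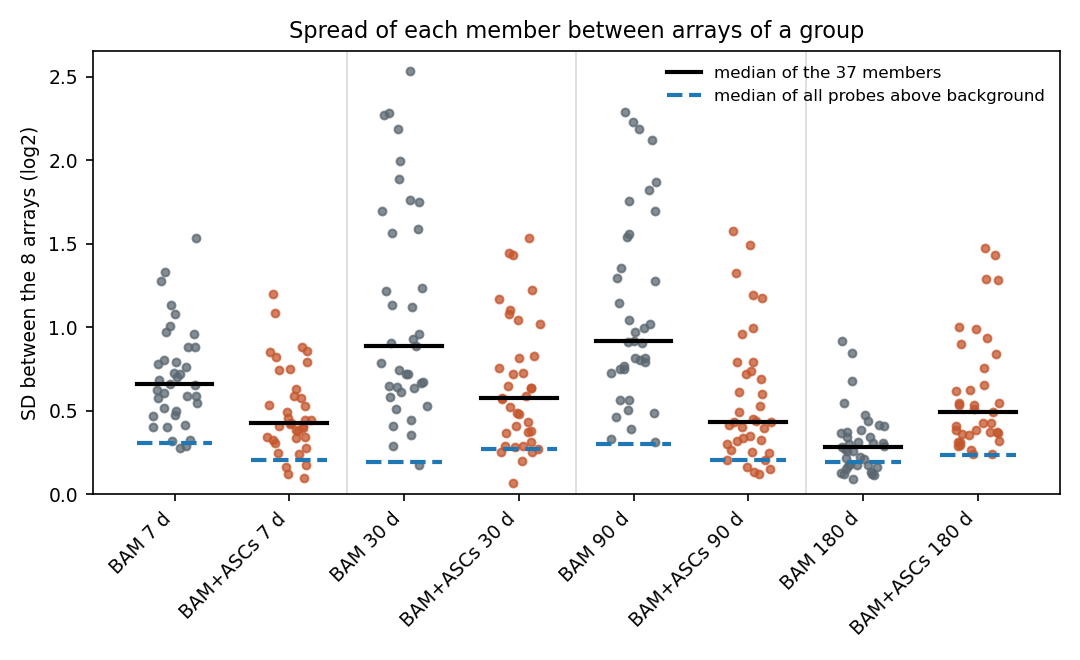
SD between the 8 arrays of a group for each of the 37 members (points; gray, BAM only; orange, BAM seeded with ASCs), with the median of the members (black line) and the median of all probes well above background on all 8 arrays (blue dashes). The members' median is 0.89 and 0.92 in BAM 30 d and BAM 90 d and 0.29 in BAM 180 d.

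Of 80 other genes of the pathway, 63 were on the array. Between grafts, 4 of the 63 were called at 7 days, 5 at 90 days and none at 30 or 180 days, all of them lower with ASCs. These are 4 and 5 genes of 63 against the shares of all probes given above for those days (5.62% and 8.6% lower), so nothing particular to the pathway is read from them. At 7 days these were Ifnb1, Ifna4, Socs3, a brake on cytokine receptors, and B2m, the light chain of MHC class I, whose probe was saturated on 1 and 3 of the 8 arrays with and without ASCs. Ifnb1, the gene of interferon beta, ran from −8.12 through −7.67 to −7.34 with ASCs and from −6.20 through −5.76 to −5.05 with BAM only, and was called lower (adjusted p = 4.76e-05). Only 1 of the 8 ASCs arrays and 6 of the 8 BAM ones had it well above background, so no size is given. Ifna4 differed by −0.79 ± 0.14 (adjusted p = 4.76e-05), with every array of that day well above background. At 90 days Ifna4 was again lower (−0.68 ± 0.14, adjusted p = 2.73e-04), and Pias1, Gbp4, Ifnk and Irf2 were called on arrays where they were well above background on at most 2 of 8 per group. Ifng, the gene of interferon gamma, cleared background on 2 BAM 7 d arrays and 3 BAM 30 d arrays, and on none of the other groups. The 34 further interferon-stimulated genes on the array had a difference between grafts above 0 in 4, 5, 6 and 28 cases, in order of day, with medians of −0.28, −0.39, −0.41 and 0.17.

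Markers of several leukocyte types lay on the same side as the list at 7, 30, 90 and 180 days, and those of neutrophils did not at 30 days. In RNA of a whole bladder wall, fewer cells of a type and less RNA per cell cannot be told apart. At 30 days the T and NK cell list lay lower with ASCs for 10 of 11 genes (median −0.84), and its mean level ran from −3.57 to −1.97 against −2.98 to −0.75 with BAM only. The macrophage list lay lower for 7 of 7 (median −0.78, range 0.59 to 1.26 against 1.20 to 1.97) and the general leukocyte list for 4 of 5 (median −0.93, range 1.13 to 2.67 against 2.37 to 3.01). The neutrophil list lay higher with ASCs for 3 of 4 genes at 30 days (median 1.33, range −3.05 to 0.95 against −3.29 to −0.74), none of them called. At 180 days T and NK cell genes lay higher for 10 of 11, macrophage genes for 7 of 7 and leukocyte genes for 5 of 5, with medians of 0.42, 0.19 and 0.31. At 90 days they lay lower for 10 of 11, 6 of 7 and 5 of 5, with medians of −0.63, −0.29 and −0.42. At 7 days only 1 of 11, 1 of 7 and 1 of 5 lay higher, with medians of −0.56, −0.30 and −0.29. The median of all probes was −0.16, −0.27 and 0.06 at 7, 90 and 180 days, so the macrophage median at 90 days was near it. Cd4 at 90 days was the one gene of these 3 lists that was called. Cd3e, which defines T cells, was well above background on none of the BAM 180 d arrays and on all 8 of each group at 7 and 30 days. Detection differed between these arrays for all spots. The median share well above background was 58.0% in BAM 180 d and 75.9% to 77.7% in the groups at 7 and 30 days. The local background was 138 to 171 and 42 to 52, so no loss of T cells is read from this. At 7 days, when Tap2 was called, the urothelial markers Upk1a, Upk1b, Upk2 and Upk3a were called higher with ASCs. Kdr and Vwf of endothelium, Pdgfrb of stroma and Csf3r of neutrophils were called lower. At 90 days Tagln, Myh11 and Actg2 of smooth muscle and Dcn, Col1a1 and Col1a2 of stroma were called higher. So were 3 of 9 housekeeping genes, among them Actb and Ppia with saturated probes, and Cdh5 of endothelium was called lower. The urothelial list lay higher for 6 of 6 genes at 30 and 90 days (medians 0.69 and 1.20), with none called. The part of these cell types in the differences of the list was not tested.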

How the data were processed

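Per the file headers, Agilent Feature Extraction 12.0.1.1 read 1 Cy3 channel per array; the deposited processed signal is a linear intensity, background-corrected within the array and not normalized between arrays. The authors' series table holds these intensities, where it has a value, for 61 of 64 arrays (1 of them, BAM 180 d replicate 1, has 24873 empty spots) and served as an alternative. Here log2 intensity minus the 75th percentile of each array was taken for 58717 gene spots, outlier spots were dropped and spots of a probe averaged (30367 probes). No array was dropped or imputed. Probes were named through RefSeq accessions (18750 probes). A probe was well above background where at least 0.5 of its spots were flagged so. limma 3.58.1 in R 4.3.3 fitted 8 group means, after a check on simulated data; the thresholds follow the study. Array number limits the precision. Python 3.11.15 made the summaries. Members and lists were chosen with earlier results of these data known. Genes named are the members called between grafts, the brightest member of each role, the called member with the largest rise and fall in each step, the interferon genes and called pathway genes (1 gene of the rule is not reported here); all others, such as Psmb8, Gbp5 and Cxcl10, were chosen after their values were seen. Alternatives covered background correction, scaling, probes, filters, thresholds, the block and left-out arrays.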

Additional observations from a re-analysis of the deposited data

Results flagged for a closer look

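Of 88 groups of 8 arrays (the list mean and 10 named members in 8 groups each), 8 held an array far from the others by Dixon's test, and chance alone picks about 1 in 20 groups. The high values were Igtp in BAM 30 d replicate 7 (5.88) and BAM 90 d replicate 8 (5.97), Mx2 in BAM+ASCs 30 d replicate 4 (5.20) and BAM+ASCs 180 d replicate 4 (4.36), and Psmb10 in BAM 7 d replicate 7 (4.43) and BAM+ASCs 180 d replicate 4 (3.30). The low values were Irf1 in BAM 180 d replicate 3 (1.25) and Dhx58 in BAM 7 d replicate 2 (−3.25). The list mean had no such array in any group.

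The effect of ASCs differed between 2 successive days, by the contrast of contrasts in limma, for Igtp between 30 and 90 days (1.16) and between 90 and 180 days (−0.81), and for Oas2 between 90 and 180 days (2.01). The Igtp probe was saturated on 51 of 64 arrays, so its values are no sizes. Its other probe gave 0.60 and 0.25, so that the second turned sign, and neither was called. Oas2 was well above background on at most 3 of 8 arrays in any group of those days.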

How the results depend on the processing

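The list mean difference kept its sign at each day in 28 alternative values and without any 1 array, where it ran from −0.39 to −0.10 at 7 days, −0.73 to −0.34 at 30 days, −0.58 to −0.19 at 90 days and 0.29 to 0.51 at 180 days. The median of all probes between grafts was −0.30, 0.02, 0.08 and 0.05 with normexp and −0.0058, −0.01, 0.02 and −0.03 with quantile normalization, in order of day. Counts of members called moved by over 1.5 times in 52 cases and stayed within that in 143, and the cause was not tested. The share of all probes called was computed at the main setting only. The counts below are therefore not set against such a share, and no excess of members is read from them. Between grafts the 7 day count was 0 with quantile normalization, with the percentile over detected probes, with only the arrays compared, at 2-fold and without the 6 arrays that stand apart. The 30 day count was 3 at an adjusted p below 0.05 and 5 at an unadjusted p below 0.01. The 90 day count was 1 with normexp, quantile normalization, the mean of all probes, dim probes left out or the other Igtp probe. Within BAM only, the count from 7 to 30 days was 0 with quantile normalization, only the arrays compared or without the arrays apart, and 3 at either looser p. From 30 to 90 days it was 4 with normexp, 1 with only the arrays compared, 3 at 2-fold and 14 at an adjusted p below 0.05. From 90 to 180 days it was 0 with quantile normalization, the mean of all probes, 2-fold or the other Igtp probe, 2 with dim probes left out, 6 at an adjusted p below 0.05 and 5 at the unadjusted p. With ASCs, the count from 7 to 30 days was 0 with normexp, the mean of all probes, 2-fold or without the arrays apart, 2 with the percentile over detected probes, 4 with only the arrays compared or the unadjusted p, and 6 at an adjusted p below 0.05. From 30 to 90 days it was 0 with normexp or quantile normalization, 4 at an adjusted p below 0.05 and 2 without the arrays apart. For the change of the ASCs effect, the count between 7 and 30 days was 1 at either looser p. Between 30 and 90 days it was 3 at an adjusted p below 0.05, 2 unadjusted and 0 with the other Igtp probe. Between 90 and 180 days it was 1 with normexp, the mean of all probes, dim probes left out, 2-fold or the other Igtp probe, and 0 with quantile normalization or only the arrays compared.

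Leaving out 1 array gave 0 to 1, 0, 2 and 0 calls between grafts in order of day, 0 to 2, 4 to 15 and 1 to 3 in the steps of BAM only, 0 to 2, 1 and 0 in those with ASCs, and 0 to 1, 1 to 2 and 1 to 2 for the change of the ASCs effect. The sign between grafts turned for Oas2 at 7 days with normexp (−0.14), Mx2 at 7 days with quantile normalization (0.049), Zbp1 at 30 days with the mean of all probes (−0.24), Zbp1 at 90 days with normexp (−0.00031) or the mean of all probes (−0.052), and Igtp with its other probe at 90 days (−0.30) and 180 days (−0.049). Without 1 array Oas2 ran from −0.054 to 0.28 at 7 days, −0.25 to 0.18 at 30 days and −0.054 to 0.44 at 180 days, Ifit3 from −0.84 to 0.038 at 30 days and Tap2 from −0.0018 to 0.14 at 180 days. The other Igtp probe and the arrays apart were chosen after the data were seen.

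With the replicate number as a block, the counts were 1, 0, 2 and 0 between grafts, 1, 7 and 1 with BAM only, 1, 1 and 0 with ASCs, and 0, 1 and 2 for the change of the ASCs effect, as without it. Arrays of 1 number in both grafts of a day deviated together with correlations from −0.47 to 0.53. Their median was −0.04, 0.17, 0.15 and 0.04 at 7, 30, 90 and 180 days, against 0.01, 0.02, 0.02 and −0.004 for arrays of unlike number. These values do not settle whether the numbers pair rats. The paper describes a random division of rats into groups, and the arrays were treated as unpaired.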

Other observations

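The array with the highest list mean was replicate 4 in BAM 30 d, BAM+ASCs 30 d, BAM 90 d and BAM+ASCs 180 d, and replicate 7 in both groups at 7 days. The replicate number is the position of the array on its slide, and a link with position was not tested.

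Tap1, Tap2, Psmb8 and Psmb9 are neighbours in the rat genome. At 7 days Tap2 differed between grafts by −0.94, Tap1 by −0.07, Psmb8 by 0.03 and Psmb9 by −0.29, and at 30 days they differed by −0.78, −0.57, −0.88 and −0.67. Cxcl10, a chemokine switched on by interferon gamma, ran from −1.54 to 5.11 in BAM 30 d and from −3.45 to −2.64 in BAM 180 d, with its highest BAM 30 d value on replicate 4.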
